A study of Mus musculus with 7 samples.

Results

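Muscle stem cells (MuSCs) are the Pax7-expressing cells that repair skeletal muscle, and the regions described here are those that were open in these cells but lay far from any protein-coding gene. ATAC-seq marks open chromatin through cuts of the Tn5 transposase. The broad peaks called by the authors in 7 libraries were merged on the autosomes wherever they overlapped by at least 1 bp. A region was kept when at least 3 libraries called it, when it lay outside every mm10 RefSeq protein-coding span and when the nearest protein-coding transcription start site (TSS) was more than 200 kb away. Of 93201 merged regions, 72933 were called in 3 or more libraries, and 4134 of these (5.67%) were desert regions. They were selected on measured calls, so how many libraries called them is given as a description with no test.

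The libraries came from male mice aged 5 to 6 weeks on a C57BL/6 background, with 5000 freshly sorted hindlimb MuSCs in each. There were 4 Nedd4L-cKO libraries and 3 WT libraries. Nedd4L-cKO mice were Nedd4L fl/fl and Pax7 cre/+, so that a Cre knocked into Pax7 acts in every cell that expresses Pax7 or descends from one that did. The deleted exon removes catalytic activity of this E3 ubiquitin ligase while the gene is still transcribed. The labels do not say whether WT mice carried the Cre or floxed alleles. The study asked whether the loss of Nedd4L changes the accessible chromatin of these cells.

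MACS2 kept 14429374 to 20084685 tags per library and called 67836 to 77479 autosomal peaks, with both highest values in Nedd4L-cKO replicate 4. WT replicate 3 was the single library from sequencing lane 2. All 8 muscle stem cell markers, among them Pax7, Myf5 and Myod1, had a peak within 1 kb of the TSS in all 7 libraries. None of 5 immune markers had one in any library, and of 5 endothelial markers Kdr and Tek had one in all 7 and the other 3 in none. Of 5 fibro-adipogenic markers Dpt and Cd248 had a peak in all 7 libraries, Dcn in 5, Lum in 1 and Pdgfra in none. Of 5 myofiber markers 4 had a peak in all 7 libraries and Ckm in 5. How far other cells contributed to the desert regions was not tested. In bulk libraries of this kind a smaller share of cells with an open region and less opening in each cell cannot be told apart.

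A gene desert is a long stretch of the genome without protein-coding genes. Many deserts that flank genes of development hold enhancers, elements that act on a promoter over long distances, and others hold few marked elements. Deserts can also hold genes of long non-coding RNAs (lncRNAs) and microRNAs (miRNAs), which the distance rule does not count as genes. Pileup, the coverage of extended tags over a peak, is given here as a percentile among the autosomal peaks of the same library, with 100 for the highest peak.

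The desert regions whose sequence could be read were those that hold the start of an lncRNA gene. RefSeq gives a promoter window, 250 bases before to 50 after the start, for 1161 lncRNA genes that lie in deserts, and a window of 125 of them (10.8%) overlapped a desert region. These windows fell in 121 desert regions, 81 of them called in all 7 libraries. The windows below were chosen because they belong to the lncRNA start with the highest pileup, to both miRNA host genes and to a start that holds both motifs searched. Each is 5′ to 3′ on the gene's strand, from RefSeq on GRCm38.p6, the assembly called mm10. Capitals mark the letters CAGCTG, an E-box of the kind bound by MYOD1 and related factors, and TGANTCA, the AP-1 motif; both read the same on either strand, N stands for any base, and a match of one can share 2 letters with a match of the other.
A230028O05Rik, chr16:25059389-25059688, plus strand: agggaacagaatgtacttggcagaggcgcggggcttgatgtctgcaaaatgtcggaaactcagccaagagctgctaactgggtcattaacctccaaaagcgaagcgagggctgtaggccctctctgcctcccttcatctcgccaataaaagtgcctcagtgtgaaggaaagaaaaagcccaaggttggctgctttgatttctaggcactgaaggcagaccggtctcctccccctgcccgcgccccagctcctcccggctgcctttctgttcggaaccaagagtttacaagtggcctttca
Mir100hg, chr9:41474643-41474942, plus strand: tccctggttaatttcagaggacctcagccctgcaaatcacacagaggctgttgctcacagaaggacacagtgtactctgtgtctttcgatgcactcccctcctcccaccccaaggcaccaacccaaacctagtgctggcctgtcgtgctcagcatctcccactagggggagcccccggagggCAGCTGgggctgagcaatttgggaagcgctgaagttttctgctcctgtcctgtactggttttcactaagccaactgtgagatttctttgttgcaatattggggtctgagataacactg
Mir100hg, chr9:41376276-41376575, plus strand: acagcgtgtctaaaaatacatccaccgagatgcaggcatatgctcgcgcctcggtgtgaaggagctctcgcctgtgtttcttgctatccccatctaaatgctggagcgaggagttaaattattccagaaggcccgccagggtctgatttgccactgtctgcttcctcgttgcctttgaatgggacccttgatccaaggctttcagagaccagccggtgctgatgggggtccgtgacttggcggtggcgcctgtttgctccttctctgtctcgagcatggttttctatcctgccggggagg
Mir99ahg, chr16:77329078-77329377, plus strand: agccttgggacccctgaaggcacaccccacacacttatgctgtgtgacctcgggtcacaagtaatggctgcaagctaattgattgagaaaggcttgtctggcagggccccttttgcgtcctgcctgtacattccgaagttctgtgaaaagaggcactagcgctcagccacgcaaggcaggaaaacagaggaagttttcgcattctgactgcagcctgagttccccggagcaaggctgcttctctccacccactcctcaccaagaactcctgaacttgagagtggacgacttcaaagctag
LOC115487176, chr9:61013180-61013479, plus strand: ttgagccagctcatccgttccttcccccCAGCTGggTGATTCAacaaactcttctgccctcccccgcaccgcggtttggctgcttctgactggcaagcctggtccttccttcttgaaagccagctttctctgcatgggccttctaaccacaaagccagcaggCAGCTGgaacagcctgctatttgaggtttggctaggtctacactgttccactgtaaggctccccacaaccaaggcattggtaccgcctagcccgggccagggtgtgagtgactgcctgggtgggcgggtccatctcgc

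CAGCTG was present in 39 of the 138 desert windows that overlapped a desert region (28.3%) and in 184 of the 1208 desert windows that did not (15.2%), against 16.3% of all 32851 promoter windows in the table. TGANTCA was present in 18 of the 138 windows (13.04%), in 119 of the 1208 (9.85%) and in 7.81% of all windows. The first set was also richer in G and C, with a median of 48.5% against 44.0% in the second. Over all 11311 lncRNA windows on the autosomes this median was 48.3%, with CAGCTG in 17.6% and TGANTCA in 9.25%. Windows of the same gene can share most of their bases, so these shares are descriptions with no test. A match is a match of letters and not a bound site. The windows of A230028O05Rik and Mir99ahg held neither motif, the inner start of Mir100hg held 1 CAGCTG, and LOC115487176 held 2 CAGCTG and 1 TGANTCA.

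The A230028O05Rik window lies in chr16:25058072-25059996, in the desert between Lpp, which encodes a focal adhesion protein, and Tprg. Its pileup percentiles were 99.2, 99.1, 99.3 and 99.6 in Nedd4L-cKO replicates 1 to 4 and 99.5, 99.4 and 99.2 in WT replicates 1 to 3, so the region ranked among the top 1% of peaks in every library and the groups overlapped. Over all desert regions that held an lncRNA promoter window the median pileup percentile was 30.9, and over the other desert regions it was 29.7. In near intergenic regions, which lie outside spans with the nearest TSS 10 to 200 kb away, the same medians were 56.8 and 37.7. By these medians, regions at lncRNA starts ranked higher than the rest near genes but little higher in deserts. The plot of the 2 rankings shows the desert regions at lncRNA starts spread over the whole range of pileup.

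The second kind of non-coding gene in the deserts was the miRNA. Of 52 miRNA hairpins located in deserts, 5 overlapped a desert region and 15 lay within 10000 bp of one, these 5 included. A miRNA pairs with its targets mainly through its seed, bases 2 to 8, and seeds are in capitals in the mature sequences below, which are RefSeq entries. The first 4 were chosen because they come from 2 related clusters, one in the Mir100hg desert and one in the Mir99ahg desert, that lay in or beside desert regions. The fifth was chosen because its hairpin overlapped a desert region elsewhere.
mmu-miR-100-5p, chr9:41531437-41531458: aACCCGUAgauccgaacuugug
mmu-miR-99a-5p, chr16:77598940-77598961: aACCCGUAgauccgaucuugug
mmu-miR-125b-5p, chr9:41581940-41581961: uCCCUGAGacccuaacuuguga
mmu-let-7c-5p, chr16:77599672-77599693: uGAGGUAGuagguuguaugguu
mmu-miR-9-5p, chr13:83738821-83738843: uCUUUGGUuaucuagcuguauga

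miR-100-5p and miR-99a-5p share the seed ACCCGUA, and the other 3 have seeds of their own. The Mir100 hairpin lay inside chr9:41530612-41533395, 369.7 kb from the Ubash3b TSS. This region had pileup percentiles of 35.1, 44.3, 28.8 and 22.8 in the Nedd4L-cKO libraries and 35.1, 34.5 and 30.9 in the WT libraries. The groups overlapped and the values sat below the middle of each library. The Mir125b-1 hairpin of the same host lay 656 bp from chr9:41579481-41581270, whose percentiles were 73.2, 75.4, 78.0 and 80.6 in Nedd4L-cKO and 79.05, 77.2 and 72.3 in WT. That region was higher than the one at Mir100 in all 7 libraries. Mirlet7a-2, between them, was 3321 bp from the Mir100 region.

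Both Mir100hg starts shown above, those of the host transcript of that cluster, lay in desert regions. The inner start, in chr9:41474193-41475780, had percentiles of 77.1, 81.6, 74.7 and 77.8 in Nedd4L-cKO and 77.8, 77.1 and 81.7 in WT. The outer start, in chr9:41376072-41379045, had 47.7, 59.97, 51.4 and 62.2 in Nedd4L-cKO and 54.0, 54.2 and 55.1 in WT, and it was below the inner start in every library. For Mir99ahg on chromosome 16, the region at the start had 58.0, 64.1, 68.1 and 73.5 in Nedd4L-cKO and 70.2, 67.4 and 72.5 in WT. The hairpins Mirlet7c-1 and Mir99a of this host lay 2671 and 3421 bp from a desert region with a median percentile of 47.1. Mir9-2, which encodes a miRNA known for its part in neural development, overlapped a region between Mef2c and Tmem161b that 4 libraries called, at percentiles of 14.1 and 4.32 in Nedd4L-cKO replicates 3 and 4 and 13.98 and 1.85 in WT replicates 1 and 2. It was thus near the bottom of each list, and 3 libraries did not call it.

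**Figure D1:**
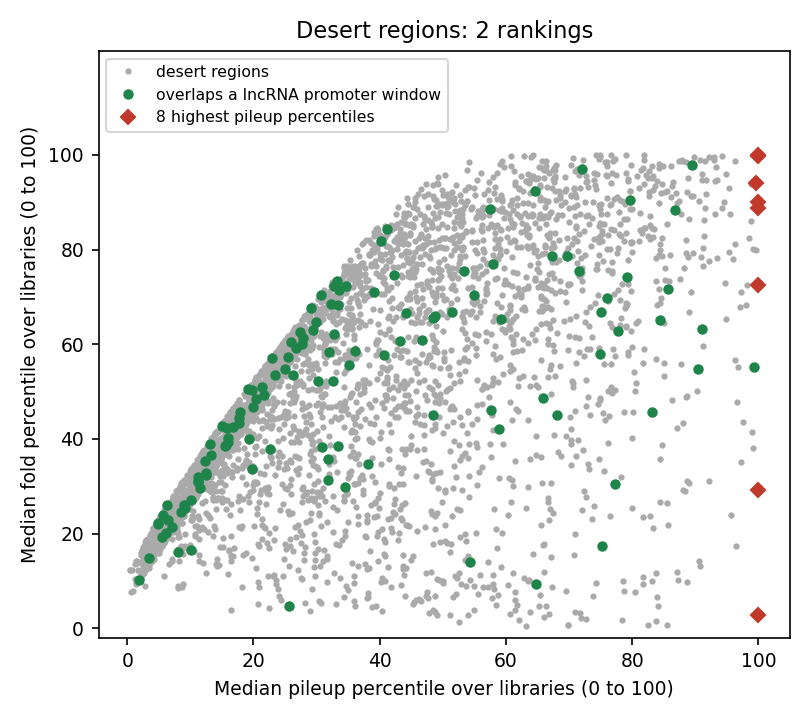
Median pileup percentile (horizontal axis, 0 to 100) against median fold enrichment percentile (vertical axis, 0 to 100) over the libraries that called each of the 4134 desert regions. Green points are the 121 regions that overlap an lncRNA promoter window and spread over the whole range; red diamonds are the 8 regions of highest pileup, whose fold percentiles run from 2.88 to 99.9971.

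Of the 4134 desert regions, 2560 (61.9%) were called in all 7 libraries, 456 in 6, 375 in 5, 314 in 4 and 429 in 3. Over all 72933 regions the share called in 7 was 71.6%. A further 1133 regions at desert positions were called in 1 library and 504 in 2, and these were left out by the rule. The distance to the nearest TSS had a median of 315 kb and quartiles of 246 and 435 kb, and it reached 2418 kb. In all, 700 desert regions were over 500 kb and 73 over 1000 kb from a TSS. Since the rule measures distance to the TSS, 64 regions lay within 10 kb of the span of a long gene, and 2990 (72.3%) were over 200 kb from every span. The regions just inside the limit were 200024, 200026 and 200033 bp away (nearest to Ptn, Lmx1a and Snx13), with median pileup percentiles of 54.0, 12.2 and 12.1. Those just outside were 199958, 199942 and 199899 bp away (nearest to Wrnip1, Gm5148 and Map3k1), with 35.4, 94.7 and 52.6.

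Desert regions ranked lower in pileup than other intergenic regions. The merged length had a median of 1062 bp, from 207 to 4026 bp, against 1066 bp for the 19497 near intergenic regions. Within each library the median pileup percentile of desert regions was lower than that of near intergenic regions, with differences of -8.12 to -7.05 points. Over libraries it averaged 35.4 ± 1.32 (SD, n = 7) for desert regions and 42.8 ± 1.13 (SD, n = 7) near genes. The mean difference was -7.48 ± 0.349 (SD, n = 7; exact sign-flip test on 7 within-library differences, two-sided p = 0.0156, the smallest the test allows). The median peak length was also shorter in all 7 libraries, with differences of -20.5 to -4.5 bp and the same p. Among regions called in all 7 libraries, however, it was 4.64 bp longer (exact sign-flip test, p = 0.25). All libraries share the same regions, so these p-values cover the spread between libraries alone and not the choice of regions.

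The order of the classes depended on the measure of height. By pileup, median percentiles over regions were 29.8 in deserts, 38.3 near genes, 43.1 in gene bodies and 84.8 at promoters, the last being regions within 1 kb of a TSS. By fold enrichment, the ratio of pileup to local background in the same library, they were 47.5 in deserts, 46.6 near genes, 42.1 in gene bodies and 76.3 at promoters. The within-library difference between deserts and near intergenic regions turned to 1.03 points in favour of deserts (exact sign-flip test, p = 0.0625). The lower rank of desert regions by pileup was thus not seen by fold. Among desert regions, the median pileup percentile was 32.0 at 200 to 300 kb from a TSS, 29.6 at 300 to 500 kb, 25.9 at 500 to 1000 kb and 20.5 beyond 1000 kb, where 73 regions lay. The share called in all 7 libraries went from 63.8% through 61.7% and 57.6% to 56.2% over the same distances.

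**Figure D2:**
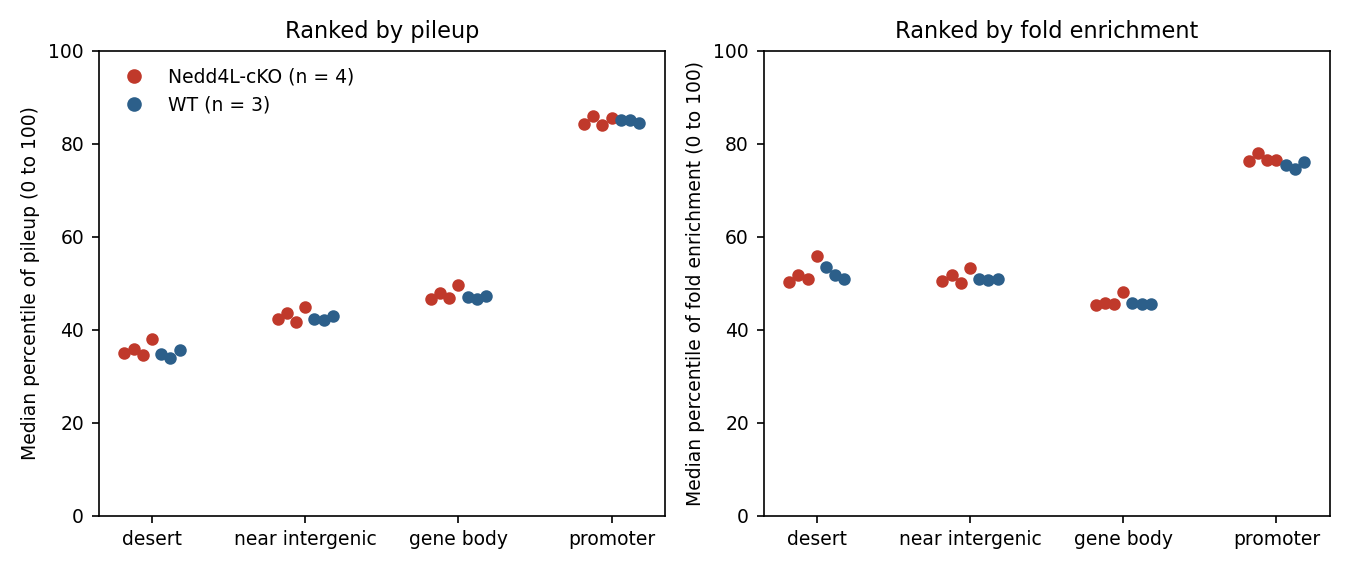
Median percentile of pileup (left) and of fold enrichment (right), each from 0 to 100, in desert, near intergenic, gene body and promoter regions, with 1 point for each library (4 Nedd4L-cKO, 3 WT). By pileup every library has deserts below near intergenic regions; by fold the 2 classes overlap.

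Desert regions were gathered in a limited number of deserts. There were 955 gaps between protein-coding spans with any stretch over 200 kb from a TSS, 570 of them held a desert region and 385 held none. Another 20 regions lay beyond the outermost gene of a chromosome. The 138 gaps with 10 or more regions held 2657 of them (64.3%), while 141 gaps held 1 each. Over the 555 Mb of these gaps that lay over 200 kb from a TSS there were 7.41 regions per Mb, against 26.7 near intergenic regions per Mb over 729 Mb. The 555 Mb and the 385 gaps include chromosome starts where no library called a peak. An example is chr1:229390-3199732, as the first region of chromosome 1 began at 3514592. How far such stretches lower the density was not tested. Neighbouring desert regions of one gap were 15.1 kb apart at the median, and 774 of 3561 such pairs (21.7%) were within 5 kb.

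The fullest desert was the 1786 kb between Myc, the growth-promoting transcription factor, and Gsdmc, a pore-forming gasdermin, at chr15:61990362-63775970. It held 64 desert regions. All 7 libraries called 44 of these, and 14 lay inside the span of an annotated lncRNA, mostly Pvt1, the transcript next to Myc. The libraries called 61, 59, 54 and 64 of them in Nedd4L-cKO and 54, 60 and 63 in WT, so the groups overlapped. The highest region, chr15:62327506-62329393, lay 342 kb from the Myc TSS and had pileup percentiles of 96.2, 94.8, 94.4 and 96.4 in Nedd4L-cKO and 94.8, 94.1 and 94.8 in WT. The next, chr15:63035877-63037174, was centred 1051 kb from that TSS, with 89.8, 88.5, 93.6 and 93.0 in Nedd4L-cKO and 94.1, 88.7 and 94.8 in WT. Both were among the top 12% of peaks in every library. Of the 64 regions, 10 had a median percentile over 75, 6 of them within 100 kb of each other around the highest region.

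**Figure D3:**
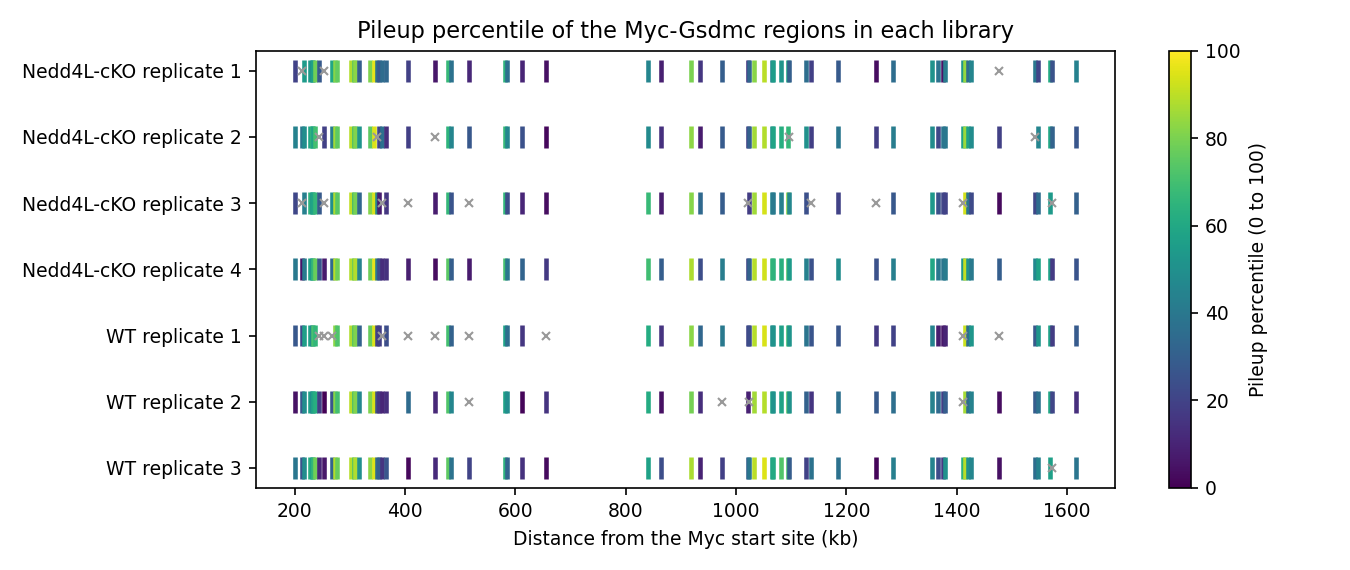
Pileup percentile of the 64 Myc-Gsdmc desert regions in each of the 7 libraries, as a tick coloured from 0 (dark) to 100 (yellow) at its distance from the Myc start site in kb. Grey crosses are regions that a library did not call; the same regions are yellow in all libraries, and none lies between 656 and 840 kb.

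The next deserts by number were shorter and denser. Between Mki67, which encodes the proliferation marker Ki-67, and Mgmt, a DNA repair enzyme, 1178 kb at chr7:135716451-136894462 held 53 desert regions (46, 44, 44 and 53 called in Nedd4L-cKO, 42, 45 and 48 in WT). Its highest region, chr7:135932290-135933784, had percentiles of 99.8, 98.4, 98.1 and 99.6 in Nedd4L-cKO and 98.6, 98.9 and 99.6 in WT. Both groups thus kept it in the top 2% of each library. Between the immune surface molecule Cd83 and Jarid2, a partner of the Polycomb complex PRC2, 928 kb at chr13:43803134-44730773 held 48 (44, 47, 38 and 46 in Nedd4L-cKO, 42, 45 and 48 in WT), or 88.0 per Mb of the stretch with room. Its highest region, chr13:44305950-44307256, had 98.8, 97.8, 97.6 and 98.1 in Nedd4L-cKO and 94.2, 98.1 and 98.9 in WT, with WT replicate 1 the lowest library.

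Among the other 12 of the 15 fullest deserts, several flanked transcription factor genes. Zeb2, a zinc finger repressor, and Acvr2a, a receptor of activins and myostatin, bounded 3697 kb with 41 regions. Only 1 of them had a median percentile over 75, chr2:46442134-46444216 at the start of the lncRNA Gm13470, which was 1325 kb from a TSS. Med13l and Tbx3, a T-box factor of limb development, bounded 39 regions, the highest of which, chr5:119246363-119247422, had percentiles of 99.4, 98.9, 99.3 and 99.3 in Nedd4L-cKO and 98.6, 99.1 and 98.4 in WT. Another 5 regions of this desert had a median percentile over 75, while the median of all 39 was 25.7. Insc and Sox6, a factor known for repressing slow fiber genes, bounded 36, the highest at a median percentile of 76.7. Prl5a1 and Sox4 bounded 31, with a highest median of 96.3.

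The remaining deserts of the 15 held 32 to 39 regions each, between Enc1 and Arhgef28 (39), Zfp507 and Gm36722 (36), Rbfox1 and Tmem114 (34), Slc4a3 and Epha4 (33), Camk1g and Plxna2 (33), Tnp1 and Tns1 (33), Gm5148 and Ankrd50 (32) and Foxo1 and Cog6 (32). Between Enc1 and Arhgef28, GENCODE places a further protein-coding gene that the RefSeq table lacks, so these 39 regions may not all be so far from a gene. In all 15 deserts the number called in the 4 Nedd4L-cKO libraries overlapped the number called in the 3 WT libraries, and the difference of the means was between -1.25 and 2.25 regions.

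**Figure D4:**
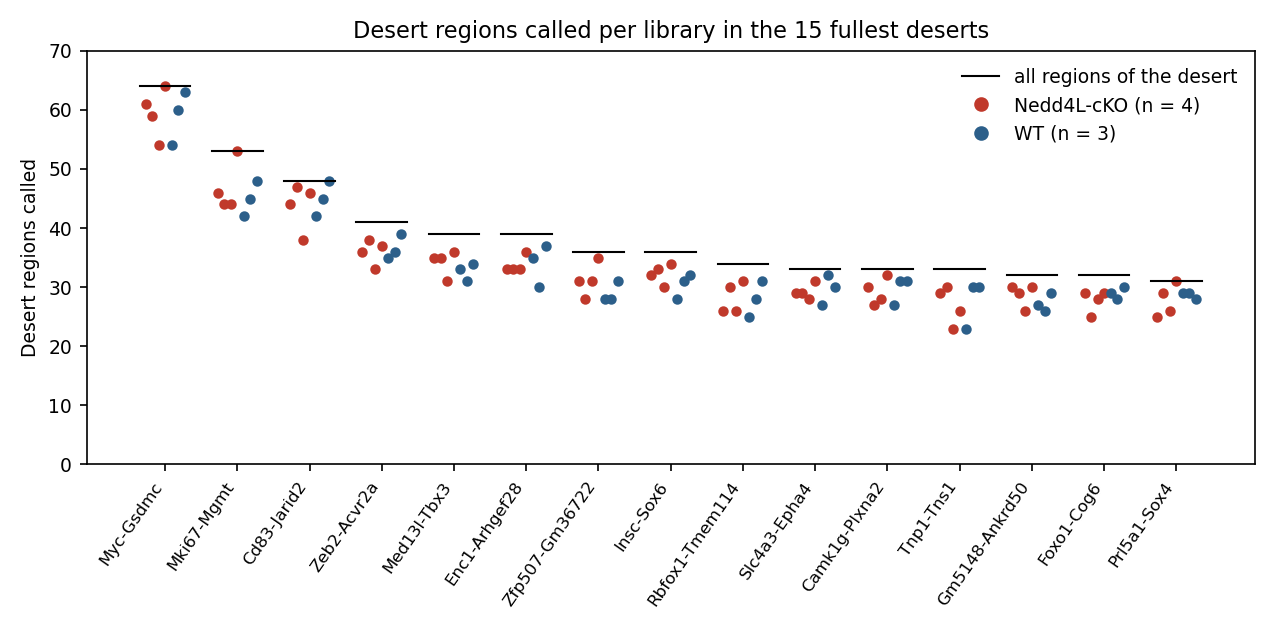
Number of desert regions called in each library (points, 4 Nedd4L-cKO and 3 WT) in the 15 deserts with the most regions, with a black line at the number of regions of the desert. The points of the groups overlap in every desert, from 54 to 64 in Myc-Gsdmc down to 25 to 31 in Prl5a1-Sox4.

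The longest deserts were not the fullest. The 5 longest gaps that held any were those between Pcdh20 and Pcdh9 (4542 kb, 6 regions), Celf4 and Pik3c3 (4511 kb, 14), Olfm4 and Pcdh17 (4420 kb, 5), Cntnap5b and Cdh20 (4278 kb, 2) and Tenm3 and Aga (3989 kb, 3). Pcdh9, Pcdh17 and Cdh20 encode cadherin family adhesion proteins, and Cntnap5b and Tenm3 other neuronal adhesion proteins. The farthest region from a TSS, chr14:90889387-90890094, lay in the first of these, 2418 kb from Pcdh20, and was called in 3 Nedd4L-cKO libraries and 1 WT library at a median percentile of 9.42. Among the longest gaps with no desert region were those between Pcdh7 and G6pd2 (3676 kb), Tenm2 and Mat2b (3442 kb), Cdh8 and Cdh11 (3214 kb) and LOC115489384 and Rab10 (3185 kb). Between Cdh8 and Cdh11, no library called any peak at all. On chromosome 12 the first region of any library began at 3109783, so most of the last gap is the start of that chromosome, where no peak was called.

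The flanking genes were grouped by 5 lists, over the 724 gaps with at least 0.1 Mb of room. A developmental transcription factor flanked 88 gaps, which held a median of 5.5 desert regions and a pooled 14.6 per Mb, against 6.29 per Mb in the other gaps. Examples are Myc (64), Tbx3 (39), Sox6 (36), Klf4 (29, next to Actl7b) and Sox9 (21, next to Slc39a11). A neuronal adhesion or synapse gene flanked 92 gaps, which held a median of 1 region and 1.77 per Mb against 8.87, and 41 of them held none. These gaps were also longer, with a median of 1381 kb against 725 kb. The fullest of them were Cdh11-Cdh5 with 27 regions and Pcdh17-Diaph3 with 23, followed by Ttll7-Adgrl2 with 19 and Epha7-Map3k7 with 18. Cdh11-Cdh5 was counted here for Cdh11, as Cdh5 is not on this list and is among the endothelial markers. A signalling ligand or regulator flanked 23 gaps, with a median of 3 regions and 15.1 per Mb against 6.95. Those of Jag1, the Notch ligand (30), and Fgf9 (18) were full, and 9 held none, among them the gaps on both sides of Bmp2 and the one at Wnt5a. Olfactory or vomeronasal receptor genes flanked 2 gaps, with 8 and 0 regions. The gap with 0 lies near the start of its chromosome, at chr4:1814903-3172082, and whether reads can map there was not tested.

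Share by share, developmental transcription factors flanked 6.48% of the 247 gaps without a desert region, 9.21% of the 228 with 1 to 4, 21.6% of the 111 with 5 to 9, 17.2% of the 87 with 10 to 19 and 23.5% of the 51 with 20 or more. For neuronal adhesion genes the shares were 16.6%, 16.2%, 7.21%, 4.598% and 3.92%. The lists were drawn up with earlier results of these data known, so these counts are a description with no test.

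**Figure D5:**
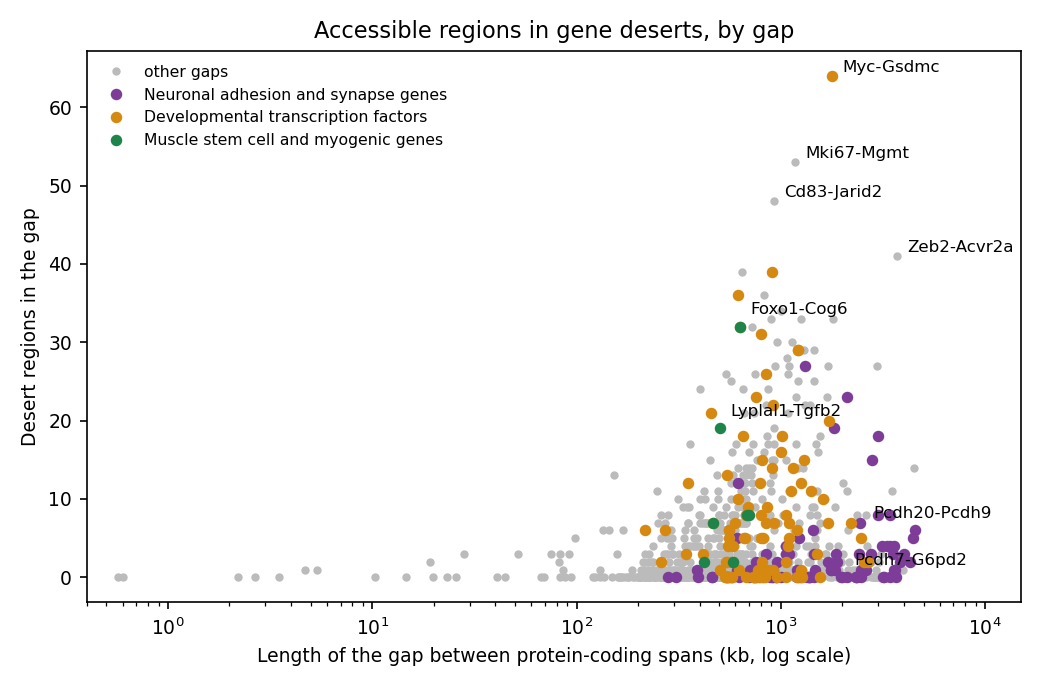
Number of desert regions (vertical axis) against the length of the gap between protein-coding spans in kb (horizontal axis, log scale) for the 955 gaps with room for one, coloured by the list that holds a flanking gene. Gaps of neuronal adhesion genes (purple) lie mostly at the right and low, and the fullest gap is Myc-Gsdmc with 64 regions.

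Genes of the muscle stem cell and myogenic list flanked 7 of those gaps. Each of the 7 held a desert region, while 247 of all 724 gaps held none. The 7 had a median of 8 regions and a pooled 41.9 per Mb against 6.98 in the other gaps. Most of their regions lay in Foxo1-Cog6 and Lyplal1-Tgfb2, also counted in the transcription factor and signalling lists, and the rest held 2 to 8 each. This list too was drawn up with earlier results known, so these values are a description with no test. The fullest was Foxo1-Cog6, beside the forkhead factor Foxo1, with 32 regions in 632 kb (29, 25, 28 and 29 called in Nedd4L-cKO, 29, 28 and 30 in WT). Its highest region, chr3:52600523-52601662, lay 332 kb from the Foxo1 TSS at percentiles of 97.6, 96.8, 96.7 and 98.6 in Nedd4L-cKO and 96.03, 98.04 and 98.01 in WT. That placed it in the top 4% of every library. Lyplal1-Tgfb2, beside the gene of the ligand TGF-β2, held 19 regions in 505 kb. All 7 libraries called 16 of these, and its 98.8 per Mb exceeded the density of each of the 15 fullest deserts. The regions of this gap had a median percentile of 58.2, against 29.8 over all desert regions.

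The other deserts beside genes of that list held fewer regions. Cxcr4, the receptor of CXCL12, and Ncam1, an adhesion molecule of myogenic cells, each flanked 8, although GENCODE places a further protein-coding gene in the Ncam1-Plet1 gap too, and Eya1 flanked 7 in the gap to Xkr9. Eya4 flanked 5 in a gap with 82818 bp of room and Meox2 flanked 2. The gaps Eya1-Msc and Gas1-Dapk1, with 45053 and 24187 bp of room, held none. The gap between Epha4 and Pax3, the paralog of Pax7, held 2 regions, of which the higher, chr1:77978664-77979422, had percentiles of 23.0, 24.0, 17.3 and 29.6 in Nedd4L-cKO and 24.0, 16.6 and 17.5 in WT. The gap between Opa1 and Hes1, a Notch target that restrains differentiation, had 86075 bp of room and held 7 regions. The highest of these, chr16:29813183-29814511 at the start of the lncRNA Gm46567, had percentiles of 89.5, 88.4, 91.2 and 95.8 in Nedd4L-cKO and 94.7, 90.4 and 91.1 in WT. The TSS nearest to this region was that of Opa1, 233.9 kb away, and not that of Hes1. The highest desert region of the Opa1-Hes1 gap thus ranked above the highest one of the Epha4-Pax3 gap in every library.

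The desert regions of highest pileup formed a small group of their own. The first was chr2:98666207-98667380, between Lrrc4c and Iftap and 2348 kb from a TSS, with pileups of 221, 213, 232 and 207 extended tags in Nedd4L-cKO and 220, 220.0 and 199.9 in WT. Median pileups of all autosomal peaks were 13.8 to 16.9, so this region was more than 10 times higher in every library. 2 more regions within 5 kb of it were in the top 0.1% of each library by pileup, but by fold their median percentiles were 29.1 and 2.88, while the first was at 89.99. Others of this group were chr3:5860259-5860907 beside Pex2, with folds of 13.4 to 13.6, 3 regions within 30 kb of each other at the start of chromosome 9 (chr9:3000077-3002348, chr9:3006591-3007364 and chr9:3023333-3026038) and chr8:20121811-20123044. Of the 20 highest pileups of each library 5 or 6 were desert regions, and of the 5 highest 2 or 3. No list of artifact-prone regions of mm10 was used here, and whether mapping of repeated sequence contributes to these values was not tested. Below them, and leaving out chromosome 18, came the A230028O05Rik region, chr12:79864139-79865600 (Rad51b-Zfp36l1 2, the second region of that desert, at a median percentile of 99.2) and the regions of Med13l-Tbx3 and Mki67-Mgmt described above.

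Of all desert regions, 69 (1.67%) had a median pileup percentile over 90, against 716 (3.67%) of near intergenic regions, and 42 were over 90 in all 7 libraries. The longest was chr3:37934982-37939007, 4026 bp between Gm5148 and Ankrd50 inside the lncRNA Gm20755, at a median percentile of 52.1. The next 3, of 3578, 3558 and 3512 bp, lay between Eea1 and Btg1, between Dact1 and Daam1 and between Chd7 and Clvs1, at 75.5, 24.2 and 92.2. These long regions thus ranged from low to high pileup. In all, 933 desert regions (22.6%) lay within an lncRNA span, against 23.0% of near intergenic regions.

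The genotypes were compared over the 7 libraries. Nedd4L-cKO libraries called 3530, 3442, 3465 and 3894 desert regions and WT libraries 3507, 3562 and 3674. The Nedd4L-cKO mean was 3583 ± 211 (SD, n = 4) and the WT mean 3581 ± 85.1 (SD, n = 3). They differed by 1.75 regions. This count, the share and the length below rest on the calls that chose the regions, so they are a description with no test. The share of autosomal peaks that were desert regions averaged 5.12% ± 0.105 (SD, n = 4) for Nedd4L-cKO against 5.16% ± 0.116 (SD, n = 3) for WT. They covered 2.89, 2.88, 2.80 and 3.43 Mb in Nedd4L-cKO and 2.89, 2.94 and 2.91 Mb in WT, with Nedd4L-cKO replicate 4, the library with the most tags, above the rest. The mean of their median pileup percentile was 35.8 ± 1.51 (SD, n = 4) for Nedd4L-cKO against 34.7 ± 0.848 (SD, n = 3) for WT (exact permutation test, two-sided p = 0.314, where the smallest p the design allows is 0.0286). In the 6 libraries of lane 1 the differences were 48.2 regions, 0.0282 points of share, 0.0842 Mb and 1.57 points of percentile, the last with an exact permutation p of 0.267.

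Calls of single desert regions were divided little by genotype. All 4 Nedd4L-cKO libraries and no WT library called 5 desert regions (0.121%), and all 3 WT libraries and no Nedd4L-cKO library called 7 (0.169%). Among all 72933 regions called in 3 or more libraries the shares were 0.0891% and 0.104%. Each share of desert regions thus rests on a handful of regions near the background. Of the first kind, the 3 with the highest lowest value over their libraries, at chr1:186425421-186425820 (Lyplal1-Tgfb2), chr3:22929770-22930667 (Tbl1xr1-Naaladl2) and chr8:103331018-103331788 (Cdh11-Cdh5), had median pileup percentiles of 15.1, 9.12 and 9.28. Of the second kind, chr16:50184997-50185658, 6186 bp from the Bbx span, was the highest, with 41.5, 38.3 and 31.9 in the WT libraries. The next was chr16:86340170-86340674 (Adamts5-N6amt1), with 5.48, 16.8 and 28.0.

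Shifts of pileup rank were tested with limma over all 52187 autosomal regions called in every library, 2560 of which were desert regions. No region passed an adjusted p of 0.05 (0% of all regions and 0 desert regions), and the lowest adjusted p of a desert region was 0.999982. At an unadjusted p under 0.05, 62 desert regions (2.42%) were higher and 25 (0.977%) lower in Nedd4L-cKO, against 1.46% and 1.23% of all regions tested. The 62 became 113 without WT replicate 3, the library of lane 2. The 25 became 56 with the log2 of tags kept as a covariate. Ranked by fold instead of pileup, 54 desert regions (2.11%) were higher and 63 (2.46%) lower in Nedd4L-cKO. The shares of all regions tested were then 1.78% and 2.19%. These counts thus moved with the libraries, the covariate and the measure used, and by fold more desert regions were lower than higher. The lowest p was that of chr8:8420855-8422429, 239 kb from Efnb2, the ephrin B2 gene, with percentiles of 36.9, 38.6, 43.6 and 49.98 in Nedd4L-cKO and 22.8, 26.2 and 21.2 in WT. The groups did not overlap at this region, which was 0.68 ± 0.11 (SE) normal-score units higher in Nedd4L-cKO (limma, unadjusted p = 0.000246, adjusted p = 0.999982). In the other direction chr13:104606890-104607581, between Adamts6 and Cwc27, had 22.5, 12.8, 15.1 and 24.0 in Nedd4L-cKO and 33.9, 33.7 and 31.8 in WT (limma, unadjusted p = 0.00175, adjusted p = 0.999982). Next to these came regions at Ttll7-Adgrl2 and Adamts9-Magi1, higher in Nedd4L-cKO, and at Jag1-Btbd3 and Rnf144b-Id4, lower in Nedd4L-cKO, none of which passed adjustment. These 6 were picked for their low p, so their values are a description.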

How the data were processed

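ATAC-seq libraries of 4 Nedd4L-cKO and 3 WT mice were compared, each from 5000 sorted MuSCs. The authors trimmed reads with Trimmomatic 0.39, aligned them to mm10 with BWA 0.7.17, filtered them with SAMtools and Picard 2.26.3 and called broad peaks in each library separately with MACS2 2.2.7.1. Per the file headers, tags were shifted by -100 and extended to 200 bp, 1 tag per position was kept, no control was used and q cutoffs were 0.1 for broad and 0.05 for narrow peaks. Read pairs were not used as pairs. The deposited pileup is a mean coverage of extended tags, not scaled to depth. The fold enrichment that the authors deposited sets this pileup, as a ratio, against the local or genome-wide background of its own library. The deposited -log10 p-value and -log10 q-value came from MACS2, and the deposited score is the -log10 q-value on a larger whole-number scale. Because pileup follows depth, it was ranked within each library.

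Peaks were merged on 19 autosomes and placed against the RefSeq gene table of GRCm38.p6, with TSS strand from its promoter table for 16456 genes, from GENCODE by symbol for 3772 and with both ends taken as possible starts for 433 of 20661 genes. A desert is the gap between consecutive protein-coding spans. The members, the gene lists and the rules were chosen with earlier results of these data known. Named were the 15 deserts with the most regions, the 5 longest gaps with and without one (1 of the latter is not reported here), the regions with the highest pileup, length or distance, the regions nearest the limit, the 3 with the lowest limma p in each direction, the 3 per direction among regions called in one genotype alone, and the deserts beside genes of the muscle list. The highest regions of each desert, the non-coding genes and the Rad51b-Zfp36l1 region were picked after their values were seen.

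The median pileup percentile was compared between genotypes by an exact permutation test and classes by exact sign-flip tests over libraries (Python 3.11.15, scipy 1.17.1). The libraries share the same regions, so the sign-flip tests cover the spread between libraries alone. Normal scores of pileup ranks were tested with limma 3.58.1 (R 4.3.3), with Benjamini-Hochberg adjustment over all regions tested. The same fit was run on simulated data, drawn as independent normal values with 200 planted shifts. The outcome of that run is not given here, so which shifts these libraries could detect is left unstated. Each library is 1 mouse. The GRCm39 genome was not read by mm10 coordinates, so sequences are RefSeq entries only. Depth limits which low regions a library calls.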

Additional observations from a re-analysis of the deposited data

Results flagged for a closer look

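Groups of 4 Nedd4L-cKO libraries were searched for a single library whose gap to the nearest other was large against the range of the group. This was met by 5 of 40 groups. Chance gives it in about 1 in 20 groups of independent, normally distributed values. Tied counts and percentiles near 100 are not such values, and the 40 groups share the same 4 libraries, so the rates cannot be compared. The length covered by desert regions was 3.43 Mb in Nedd4L-cKO replicate 4, the library with the most tags, and from 2.80 Mb in the others. In the Enc1-Arhgef28 desert the same library called 36 regions and each of the other 3 called 33. The Lrrc4c-Iftap region at chr2:98666207-98667380 was at percentile 100 in Nedd4L-cKO replicate 3, where it was the highest peak of the library. The 9530057J20Rik-Gm15319 region at chr8:20121811-20123044 was at 99.2 in Nedd4L-cKO replicate 1 and at up to 99.9 in the others. The Gm5148-Ankrd50 region at chr3:37934982-37939007 was at 45.7 in Nedd4L-cKO replicate 3 and at up to 54.4 in the others.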

How the results depend on the processing

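All genotype differences here are Nedd4L-cKO minus WT. Only the median percentile is given with a test, as the other measures rest on the calls that chose the regions. Its exact p was 0.0571 to 0.971 over its 20 alternatives, by permutation in all but the replicate block, which used a sign-flip test. The difference in desert regions called per library turned to -41.7 with a TSS limit of 100 kb, -7.5 with 500 kb, -48.7 at a -log10 q of at least 5, -156.25 with only peaks that hold a narrow peak and -21.3 with the same number of peaks per library. Leaving out 1 library gave -102 (without Nedd4L-cKO replicate 4) to 48.7, with -35.25 and -7.75 without WT replicates 1 and 2. The share of peaks turned to 0.0282 points in lane 1 alone and 0.0182 with regions called in 2 or more libraries, and ranged from -0.0873 to 0.0282 without 1 library, turning without WT replicate 3 and, at 0.00298, without Nedd4L-cKO replicate 2. The length turned to -0.0201 Mb at a -log10 q of at least 5 and -0.00799 Mb with narrow peaks, with -0.0568 (without Nedd4L-cKO replicate 4) to 0.151 Mb without 1 library. The median percentile turned to -0.275 and -0.390 under the same 2 filters, and stayed at 0.444 to 1.59 without 1 library. With 1 library left out the smallest possible p was 0.1 or 0.0667, so these p-values say nothing about stability. The causes were not tested.

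Desert regions numbered 8273 with a limit of 100 kb, 700 with 500 kb, 2560 if called in all 7 libraries and 1428 at a -log10 q of at least 5. Those called in one genotype alone numbered 12, and 22, 2 and 5 under the first, second and last of these, and 17 to 36 without 1 library, where fewer calls are needed. The desert minus near intergenic percentile was 1.03 by fold, and the length difference 4.64 bp in regions called in all 7 libraries; without 1 library, an alternative added after the data were seen, they were -7.56 to -7.38 points and -13.5 to -10.8 bp. The limma count of 0 held under all 11 alternatives, with 45 to 162 desert regions at an unadjusted p under 0.05.

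Replicate numbers shared between genotypes did not pair the libraries, with correlations of -0.219, 0.0991 and -0.240. With the replicate block, the difference was -102 regions and -0.0568 Mb, and limma called 0. Lane 2 held 1 WT library, so it gave no value. GENCODE placed a further protein-coding gene in 21 of 508 deserts checked, which hold 209 regions (5.06%), a check added after the data were seen. Depth limits which low regions are called.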
